A study of Dunaliella salina with 12 samples.

Results

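A group of 121 assembled genes of Dunaliella salina stood higher after 2 h of added NaCl and near their control level after sorbitol and after H2O2. They were chosen by their measured values from the 82333 genes of the table. In all, 3 differences of group means of log2(FPKM + 1) from the control mean were used, called N for NaCl, S for sorbitol and H for H2O2. FPKM is a transcript level scaled by transcript length and by library size. A member had a control mean below 1000 FPKM, a NaCl mean of at least 10 FPKM, N of at least 1, S within 0.3 of 0 on either side, H within 0.4 of 0, and 3 NaCl libraries that all lay above each of the 9 other libraries. All groups entered the rule, so the levels below describe the choice and are not evidence for it.

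The libraries came from whole cells of strain 435, labelled as 5 days old and grown at 25 °C. The control group was moved for 2 h into fresh medium that held 1.5 M NaCl. The NaCl group received a further 1.5 M NaCl in that medium, the sorbitol group 1.5 M sorbitol and the H2O2 group 0.4 mM H2O2, so every group, control included, was in salt medium. Each of the 4 groups had 3 libraries, and no label says that the 3 came from separate cultures.

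Dunaliella is a green alga without a rigid cell wall, known for living in brine. Its cells shrink when the medium becomes more concentrated and regain volume by making glycerol, the main osmotic solute inside the cell. Added NaCl brings both a higher osmotic strength and more sodium and chloride ions, whereas sorbitol raises osmotic strength without ions and H2O2 is an oxidant. Dissolved NaCl gives more particles per mole than sorbitol, so an effect of the ions and an effect of the stronger osmotic step cannot be told apart in this design. The files do not pair the IDs with gene names, and 0 IDs matched the 16683 genes of the Dunsal1 v. 2 annotation, so the functions of the members are not given.

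Most members were genes of moderate level in every medium that about doubled with NaCl. The median over members of the control mean was 17.1 FPKM, and that of the NaCl mean was 44.5 FPKM. It was 19.8 FPKM with sorbitol and 19.5 FPKM with H2O2. The fold of the NaCl mean over the control mean had a median of 2.36, with quartiles of 2.18 and 2.74. On the log2 scale N had a median of 1.18, and 76 of the 121 lay below 1.25. Only 23 members had N of at least 1.5, 5 had N of at least 2 and 2 had N of at least 3. The highest value in the 9 other libraries was at least 100 FPKM for 6 members, from 10 to 100 FPKM for 93, from 1 to 10 FPKM for 21 and below 1 FPKM for 1.

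**Figure D1:**
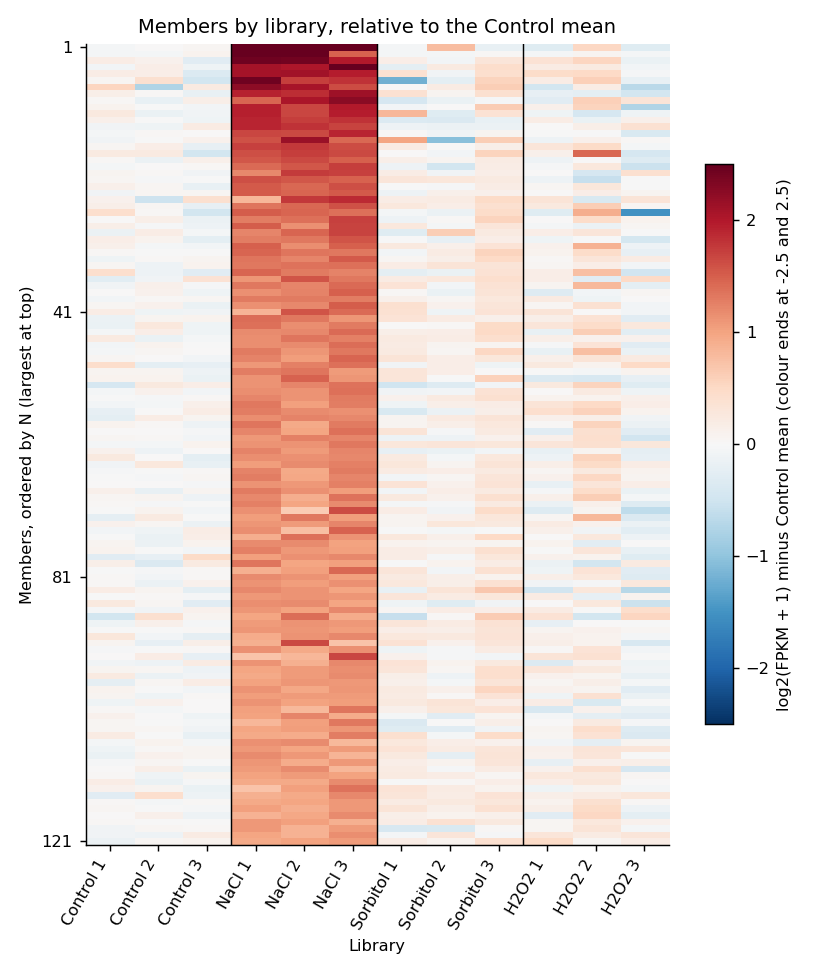
Each row is a member, ordered by N, and each column a library; colour is log2(FPKM + 1) minus the control mean of that gene, in log2 units, cut at -2.5 and 2.5. The 3 NaCl columns are red throughout by the rule, most rows between 1 and 1.5, and among the others sorbitol replicate 3 and H2O2 replicate 2 are the columns with the most pale red.

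Together the members took up a small part of the measured transcript pool. In the control libraries 1, 2 and 3 they held 0.321%, 0.306% and 0.306% of the summed FPKM. With NaCl they held 0.845%, 0.824% and 0.861%. The sorbitol libraries stood at 0.366%, 0.345% and 0.397%, and the H2O2 libraries at 0.316%, 0.343% and 0.305%. NaCl stood apart from the other groups, as the rule requires, and the 3 sorbitol libraries lay above all 3 control libraries. The group means were 0.311% ± 0.0087 for control, 0.843% ± 0.018 for NaCl, 0.369% ± 0.026 for sorbitol and 0.322% ± 0.020 for H2O2 (SD, n = 3). A single gene, c27518_g1, made up between 9.07% and 17.2% of the members' sum in each library.

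The members with the largest N were nearly absent outside NaCl. The gene c30759_g1 was at 0.19, 0.24 and 0.27 FPKM in the control libraries 1 to 3 and at 21.1, 21.5 and 6.77 FPKM with NaCl. It was at 0.19, 1.11 and 0.08 FPKM with sorbitol and was listed at 0, 0.76 and 0 with H2O2. Its N was 3.67 ± 0.42 (SE of the fit), and NaCl replicate 3 held less than the 2 other NaCl libraries. The SE of the fit pools the spread of all 4 groups, so for a gene near 0 outside NaCl it understates the spread with NaCl.

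The gene c31208_g1 was listed at 0, 0 and 0.1 FPKM in control, 0, 0 and 0.06 with sorbitol and 0, 0.08 and 0 with H2O2. With NaCl it was at 14.7, 17.4 and 1.88 FPKM, again lowest in replicate 3, and its N was 3.19 ± 0.55. The pooled SE is again too small for the NaCl group, whose SD of log2(FPKM + 1) was 1.48. It was the member whose 9 other libraries all lay below 1 FPKM. Its lowest NaCl library was 18.8 times the highest of the others, the widest separation of the 121, although that ratio rests on values near the floor of the table.

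Among members clearly present in every medium, c19273_g1 and c28105_g1 had the largest N. The gene c19273_g1 was at 18.9, 18.0 and 13.4 FPKM in control and 94.3, 93.1 and 68.7 FPKM with NaCl. Sorbitol left it at 18.7, 15.8 and 20.8 FPKM and H2O2 at 21.6, 24.4 and 14.7 FPKM. The control, sorbitol and H2O2 libraries overlapped, and N was 2.28 ± 0.20.

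The gene c28105_g1 went from 16.0, 18.8 and 15.6 FPKM in control to 74.0, 71.3 and 106 FPKM with NaCl, with N of 2.23 ± 0.19. It was at 13.9, 19.9 and 23.0 FPKM with sorbitol and 19.4, 19.7 and 15.8 FPKM with H2O2. Here NaCl replicate 3 was the highest of its group, unlike in the genes before it. A further member with N of at least 2, named after its values were seen, was c40931_g1, at 9.61 ± 2.09 FPKM in control and 42.4 ± 2.29 with NaCl (SD, n = 3).

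**Figure D2:**
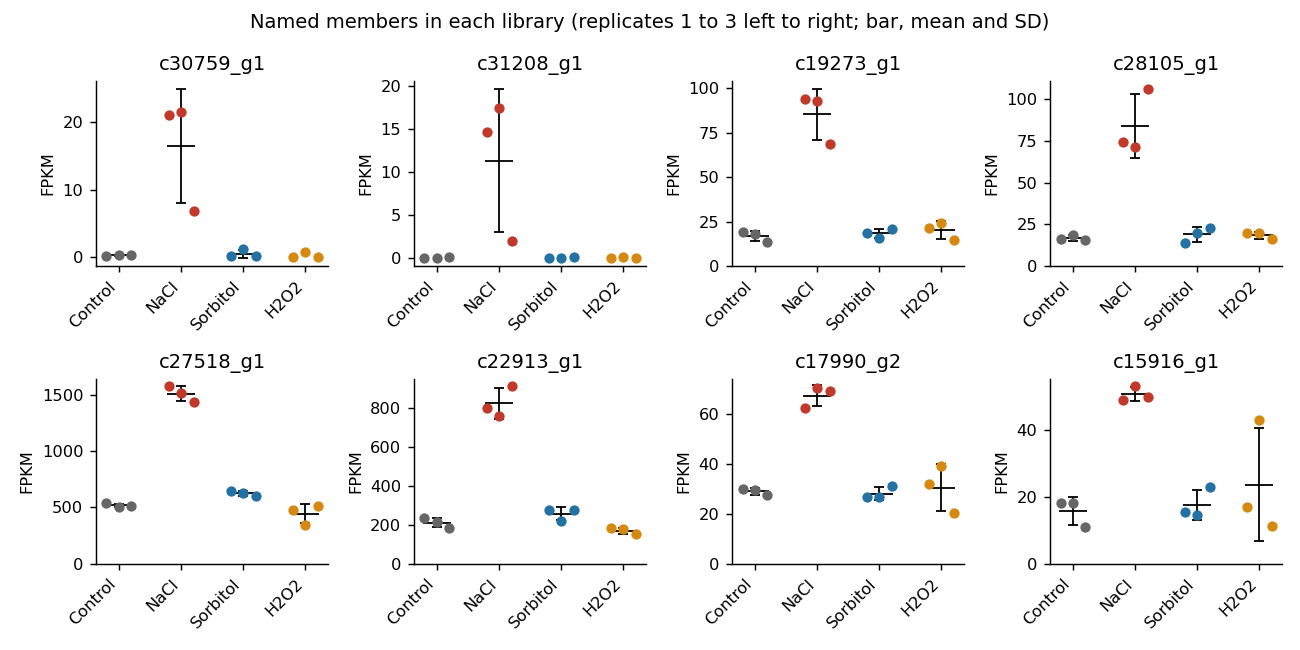
FPKM of 8 members in each library, replicates 1 to 3 from left to right within a group, with the group mean and SD as a black mark where no library is listed at 0; each panel has its own linear axis. In c30759_g1 and c31208_g1 NaCl replicate 3 lies far below the other NaCl libraries (6.77 and 1.88 FPKM), and in c15916_g1 H2O2 replicate 2 (43.0 FPKM) comes close to the NaCl libraries.

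The most abundant member, c27518_g1, was at 534, 505 and 515 FPKM in control and 1576, 1517 and 1437 FPKM with NaCl. It ranked 109 among all genes by NaCl mean. With sorbitol it was at 642, 626 and 602 FPKM, above all control libraries, and with H2O2 at 473, 346 and 512 FPKM. Its S was 0.27 and its H was -0.24, so it sat toward the upper edge of the sorbitol window.

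The gene c22913_g1 came next, at 235, 215 and 185 FPKM in control and 801, 760 and 915 FPKM with NaCl (N 1.96 ± 0.12). Sorbitol left it at 276, 220 and 276 FPKM and H2O2 at 182, 177 and 153 FPKM. All 3 H2O2 libraries lay below the control libraries, and S and H were 0.28 and -0.31. The other members of high level moved less on the log2 scale. The gene c30494_g2 went from 137 ± 2.84 to 319 ± 19.2 FPKM (N 1.22 ± 0.08), and c450_g1 from 129 ± 8.66 to 279 ± 18.9 FPKM (N 1.10 ± 0.10; SD of the levels, n = 3).

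Of members away from the floor, c17990_g2 stayed closest to its control level in both other media. It was at 29.9, 29.6 and 27.5 FPKM in control, 26.6, 26.6 and 31.3 FPKM with sorbitol and 31.9, 39.2 and 20.4 FPKM with H2O2. Its NaCl libraries were at 62.5, 70.5 and 69.2 FPKM. Its S and H were -0.05 and 0.02, but its H2O2 libraries spread on both sides of the control group, so the mean near 0 does not describe each library.

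In a model fitted across the 27038 tested genes (limma, adjusted p under 0.05), all 121 members were called higher with NaCl than in control, where 18.4% of tested genes were. All 121 were also called higher with NaCl than with sorbitol (8.8% of tested genes) and than with H2O2 (14.8%). The rule used these contrasts, so the counts describe the choice. The rule also limited S and H, so low counts and shares for sorbitol or H2O2 against control describe the choice too. For sorbitol against control, 1 member was called higher and 0 lower, where 6.7% of tested genes were called higher and 6.47% lower, and 19 members (15.7%) had an unadjusted p under 0.05, against 27.3% of tested genes. The called one, c29182_g2, was named after its values were seen. It was at 42.5, 42.9 and 47.3 FPKM in control, 53.7, 54.5 and 54.1 FPKM with sorbitol and 97.0, 96.8 and 111 FPKM with NaCl. With H2O2 it was at 55.05, 58.36 and 53.62 FPKM. Sorbitol and H2O2 both lay above control in every library, with S of 0.29 and H of 0.33, inside the limits of the rule. The unadjusted limma p was 0.0033 for sorbitol and 0.0013 for H2O2, and the adjusted p 0.032 and 0.142, so H2O2 was not called. The count of 1 became 0 when control replicate 2 or sorbitol replicate 3 was left out, and 5 (4 higher and 1 lower) when H2O2 replicate 2 was. For H2O2 against control limma called 0 members, and 8 (6.61%) had an unadjusted p under 0.05, against 12.0% of tested genes. The background of calls there was 0.037% higher and 0.074% lower, so a count of 0 is near the background.

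The members did not sit evenly around their control level with sorbitol. S was above 0 in 102 of the 121 and below 0 in 19, with a median of 0.18 and quartiles of 0.07 and 0.25. Over all tested genes S was above 0 in 56.7% with a median of 0.07. Among the 5802 tested genes that met both windows and the level limits, whatever their N, it was above 0 in 60.7%, against 84.3% of members. N, S and H subtract the same control libraries, so low control values raise all of them. The members were also chosen on N and S, so this lean describes the choice, and the part of the shared control was not tested. H was above 0 in 84 members and below 0 in 37, with a median of 0.07, the same as the median over all tested genes. Scaling the libraries by median ratios moved the median H of the members to -0.03, with 50 above 0, and the median S to 0.09, with 88 above 0. With equal sums, S was above 0 in 107 and H in 89.

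No break separated the members from genes that sorbitol also moved. Of 1040 genes with N of at least 1 at these levels, 878 had NaCl libraries above all others. Only 14.5% of the 878 had S within 0.3 of 0, while 734 had S above 0.3 and 17 had S below -0.3. The median S of the 878 was 0.58 and their median H 0.12. With the H limit also applied, genes per step of 0.15 in S from -0.3 upward numbered 7, 12, 31 and 71 within the window, then 133 and 147 just above it. The window on H mattered less, since 85.4% of the 878 met it. Leaving out a single criterion shows the same order. The S window alone kept out 629 genes, of which 623 lay above it and 6 below. The H window alone kept out 6, the overlap criterion 11, the NaCl level 100, the control level 1 and the size of N 933.

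**Figure D3:**
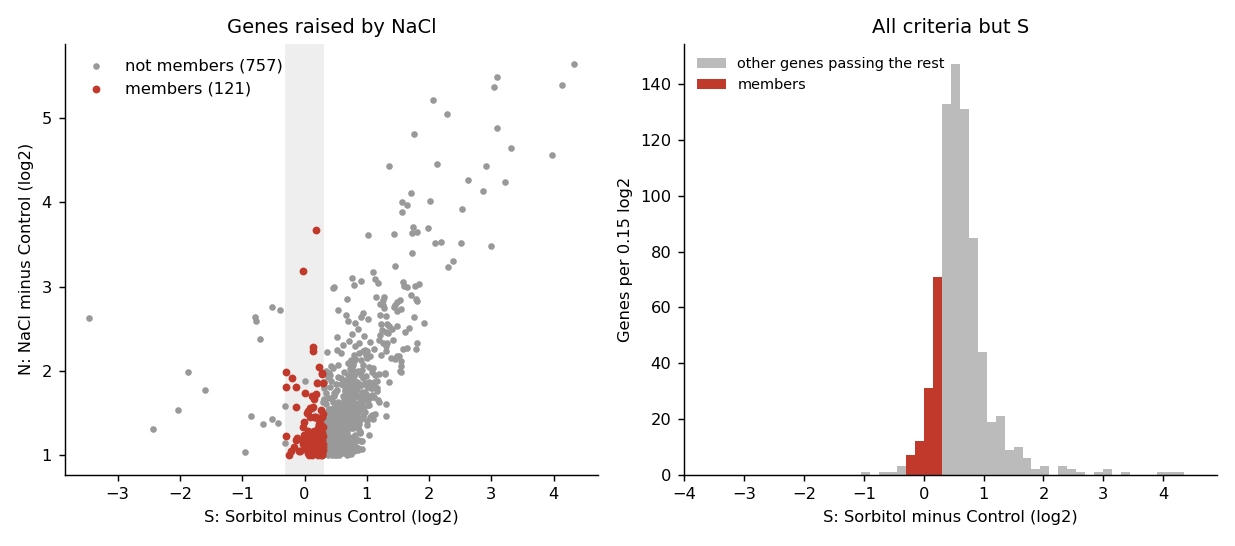
Left, N against S (log2) for the 878 genes that met the criteria on level, N and overlap, with the 121 members in red and the S window shaded; right, the number of genes per 0.15 log2 of S among those that met every criterion but S. Counts climb through the window, from 7 to 71 per step, and go on to 133 and 147 just above it.

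The genes at the edges of the rule show how close members and other genes came. For N, the member c21023_g1 (8.13 ± 0.77 FPKM in control, 17.2 ± 0.69 with NaCl; SD, n = 3) had 1.00, and c30194_g1, just outside, had 0.99. For S, the member c18259_g1 had a value just under 0.3, and c28923_g1, just outside, was at 76.2 ± 3.36 FPKM in control, 94.1 ± 6.71 with sorbitol and 181 ± 10.8 with NaCl. For H, the member c15916_g1 had 0.38 and c15817_g1, just outside, had 0.40. For the NaCl level, the member c19530_g1 had a mean of 10.5 FPKM and c31292_g1 one of 9.61 FPKM. That gene, near absent elsewhere, was at 8.61, 15.2 and 4.99 FPKM with NaCl, lowest in replicate 3 like c30759_g1 and c31208_g1.

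The control limit kept out 1 gene, c31489_g2, which was more abundant than any member. It was at 1199, 1185 and 1308 FPKM in control and 3370, 2873 and 2946 FPKM with NaCl. Sorbitol left it at 1300, 1216 and 1175 FPKM, a mean of 1230 ± 63.6 against 1230 ± 67.6 in control (SD, n = 3). With H2O2 it was at 1206, 874 and 1427 FPKM, on both sides of the control libraries.

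The 3 NaCl libraries did not rank alike over the members. Replicate 3 was the highest NaCl library in 60 of the 121, replicate 1 in 32 and replicate 2 in 29. Among the 10319 tested genes with a NaCl mean of at least 10 FPKM, replicate 3 was highest in 40.3%, replicate 1 in 17.8% and replicate 2 in 41.9%. The median over members of the FPKM was 43.7, 43.8 and 47.1 in the NaCl libraries 1 to 3. It was 18.1, 18.1 and 16.5 in control, 18.9, 18.2 and 21.4 with sorbitol and 18.5, 21.7 and 15.8 with H2O2.

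Outside NaCl, a pair of libraries came closest to the NaCl level. The highest of the 9 other libraries was H2O2 replicate 2 in 45 members and sorbitol replicate 3 in 40, and a control library in 7. In c15916_g1 the H2O2 libraries were at 16.8, 43.0 and 11.2 FPKM, against 49.1, 53.0 and 49.9 with NaCl and 18.1, 18.1 and 10.9 in control, so replicate 2 alone brought H to 0.38. The lowest NaCl library was at least 1.5 times the highest other library in 79 members and at least 2 times in 22. The smallest ratio, 1.13, belonged to c16698_g1. The median-ratio factor of H2O2 replicate 2 was 1.09, the largest of the 12, and that of sorbitol replicate 3 was 1.03; the part of library scaling in this order was not tested beyond the alternatives given.

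The spread between libraries was similar to that of other genes in control. For the 97 members in the middle range of mean level, the SD of log2(FPKM + 1) over the 3 libraries had a median of 0.12 in the control group, 0.13 for NaCl, 0.14 for sorbitol and 0.21 for H2O2. For the 9839 tested genes in that range the medians were 0.12, 0.15, 0.13 and 0.18. The overlap criterion favors genes of small spread with NaCl. The largest spread was that of c31208_g1 within NaCl, an SD of 1.48.

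The choice itself was repeated without each library in turn, and the values were then read in the library that had not been used. This was added after the data were seen, and the other libraries, controls included, still entered both the choice and the difference. Without NaCl replicate 1, 2 or 3 the rule gave 145, 130 and 120 genes. In the library left out their median difference from control was 1.12, 1.12 and 1.23, and 92.4%, 94.6% and 94.2% of them lay above all 9 other libraries there. A difference of at least 1 was reached by 65.5%, 66.9% and 79.2%. The other NaCl libraries already had to lie above the same 9 libraries, so high shares were likely from the choice. The shares over all tested genes were not worked out, so these values are not a rate of replication.

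The sorbitol side was less even. Without sorbitol replicate 1, 2 or 3 the rule gave 129, 104 and 162 genes, and their median S in the library left out was 0.23, 0.09 and 0.37. The share within 0.3 of control there was 57.4%, 74.0% and 35.8%. In sorbitol replicate 3, 104 of the 162 lay above the window and 0 below it. For H2O2 replicates 1, 2 and 3 the median was 0.06, 0.26 and -0.05, and 94.2%, 64.8% and 84.7% lay within 0.4 of control. The shares over all tested genes in these libraries were not worked out. The genes were chosen for a mean inside the window in the libraries kept. The part of that choice, or of a shift of a whole library, in these shares was not tested. Genes chosen without a control library had a median N of 1.19, 1.20 and 1.30 against that library alone. Of the 121 members, 40 were chosen whichever of the 12 libraries was left out, among them c27518_g1, c450_g1 and c17990_g2. The other 81 were not, and they include the 12 members with the largest N (c30759_g1, c31208_g1, c19273_g1, c28105_g1, c40931_g1 and c22913_g1 among these) and c30494_g2. A gene can drop out on S, H, level or overlap, so its loss does not mean that N fell below 1. Which limit each gene missed was not listed. Under both other scalings of the libraries 63 of the 121 remained members.

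**Figure D4:**
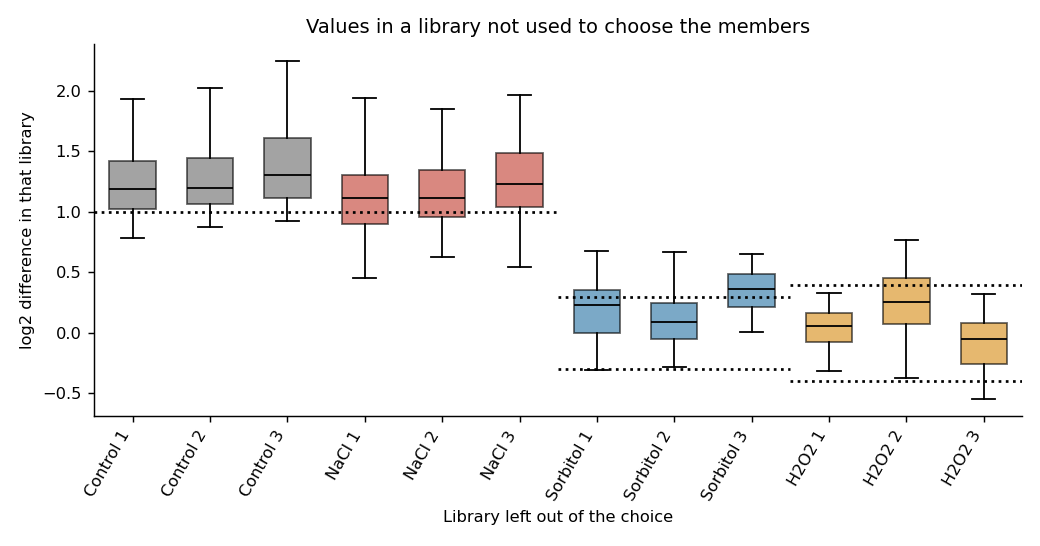
Differences in log2(FPKM + 1) in the library named below each box, for genes chosen without that library; for control libraries the NaCl mean minus that library, for the others that library minus the control mean. Boxes span the quartiles with the median, whiskers the 5th to 95th percentile, and dotted lines mark the limits of the rule; sorbitol replicate 3 has its median (0.37) above the window, whereas the NaCl medians (1.12, 1.12 and 1.23) are above 1.

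Genes higher with both NaCl and sorbitol had a larger N than the members. The set compared met the same level limits and N of at least 1 but had S of at least 1, and held 177 genes. Every NaCl library lay above the control libraries, while H and the overlap with sorbitol and H2O2 libraries were not limited. It lies far from the members in S, and genes just above the S window are nearer to them. Their median N was 2.34 against 1.18 for the members, and 63.8% of them had N of at least 2 against 4.13% of members. Their median control level was 9.2 FPKM against 17.1 FPKM, and their median NaCl level was 54.9 FPKM against 44.5 FPKM. Both sets had a median H near 0, at 0.14 and 0.07. These values were used to form the sets and were not tested. N and S subtract the same control libraries, so low control values raise both. The part of the shared control in the larger N and lower control level was not tested.

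An ID names a component of the assembly, a cluster of related transcripts, and a gene within it. The 121 members lay in 120 components, and 73 of them (60.3%) were the sole gene of theirs, against 58.2% of tested genes with a NaCl mean of at least 10 FPKM. The pair in a shared component was c16698_g1 and c16698_g2. The gene c16698_g1 was at 39.4, 42.2 and 38.0 FPKM in control and 89.2, 62.2 and 126 FPKM with NaCl. The gene c16698_g2 was at 74.3, 73.5 and 72.4 FPKM in control and 173, 147 and 192 FPKM with NaCl. In both, NaCl replicate 2 was the lowest and replicate 3 the highest of the group. Genes of a component may be similar in sequence, and reads may be split between them, so the pair may not be independent.

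The other genes of the members' components are those that did not meet the rule, and most did not share the change. Genes that met the rule were taken out of this set as members, whereas the shares of all tested genes include the members. A lower share raised by NaCl is therefore partly built in. There were 133 of them, of which 82 were tested, in 29 components. With NaCl 18 of the 82 were called higher (22.0%) and 16 lower (19.5%), near the 18.4% and 17.4% of all tested genes, and 48 were not called. Their median N was 0.09, against 0.03 over all tested genes. With sorbitol 9 were called higher (11.0%) and 3 lower (3.66%), where 6.7% and 6.47% of all tested genes were. With H2O2 limma called 0, beside 0.037% and 0.074% of all tested genes, and 8 of the 82 (9.76%) had an unadjusted p under 0.05, against 12.0% of tested genes.

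Of the 82, 4 had N of at least 1 (4.88%), beside 6.82% of all tested genes. Each of the 4 met every criterion but that on S, so its S had to lie outside the window. All 4 lay above it, as did 623 of the 629 genes that the S window alone kept out. The 4 are named here because of these values. The gene c28266_g3 went from 37.3, 35.4 and 34.8 FPKM in control to 195, 158 and 168 FPKM with NaCl (N 2.24 ± 0.25, limma adjusted p = 2.1e-05) and stood at 69.7, 60.6 and 89.6 FPKM with sorbitol (S 1.00, adjusted p = 0.021). Its partner among the members, c28266_g2, was at 25.3 ± 10.8 FPKM in control, 97.6 ± 20.6 with NaCl and 29.4 ± 6.67 with sorbitol (SD, n = 3). So both rose with NaCl in the same component, and the sorbitol call was made for c28266_g3. The genes c31274_g4 and c30659_g2 were likewise called higher with NaCl (N 1.48 and 1.40) and with sorbitol (S 0.61 and 0.63). The gene c31274_g1 was called higher with NaCl (N 1.39) and had S of 0.34, which was not called.

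Another 4 of the 82 had N of -1 or below, and the share over all tested genes was not worked out. The gene c29182_g1 fell from 83.8, 94.6 and 82.3 FPKM in control to 28.9, 31.0 and 29.1 FPKM with NaCl (N -1.52 ± 0.10, limma adjusted p = 4.1e-07). It also fell with sorbitol, to 60.6, 48.3 and 52.3 FPKM (S -0.69, adjusted p = 0.0011). The member of that component, c29182_g2, more than doubled with NaCl, so the 2 genes moved in opposite directions and no NaCl library of either overlapped its controls. The gene c31141_g1 was lower with NaCl as well, at 72.2 FPKM against 185 FPKM in control on average (N -1.35, adjusted p = 4.3e-06), and so were c30359_g6 (N -1.56) and c30706_g2 (N -1.01). RSEM, which the submitters' processing notes name, divides reads that match several transcripts between them. No source used here gives its settings, and the part of this division in these differences was not tested.

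**Figure D5:**
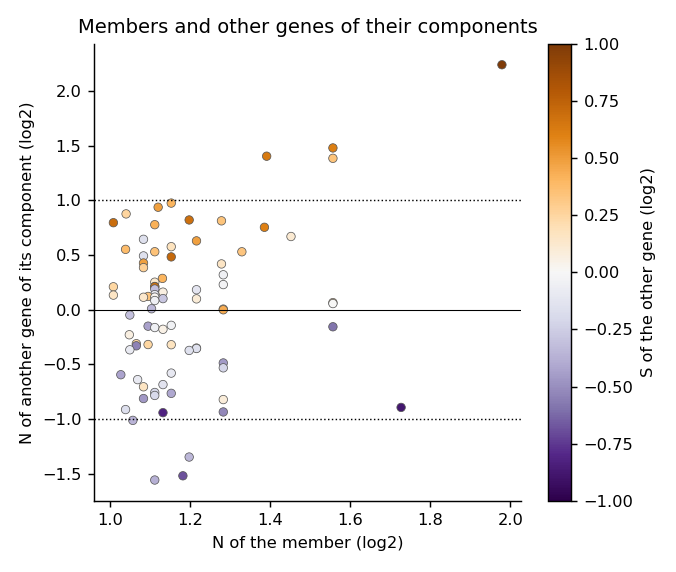
Each point is 1 of the 82 tested genes that share a component with a member, with the member's N on the horizontal axis (the larger N where a component holds a pair) and its own N on the vertical axis, both in log2; colour gives its S. Points lie on both sides of 0 with 4 at 1 or above and 4 at -1 or below. The 4 at 1 or above have S above the window; inside it they would be members.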

How the data were processed

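RNA was measured in 12 libraries of D. salina, and groups and replicate numbers come from the sample titles. The submitters' processing notes list the read trimmer cutadapt and the abundance estimator RSEM; neither versions nor the reference sequence is given in the sources used here. No source names the unit. The values the authors deposited were read as FPKM because they are decimals of 0 or more whose library sums, from 1065190 to 1133348, are unlike those of counts or TPM.

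A gene was tested if 3 or more libraries reached 1 FPKM, which 27038 genes did, all 121 members among them. All 12 libraries entered a single fit of log2(FPKM + 1) with limma 3.58.1 in R 4.3.3, using its mean-variance trend. This scale shrinks the differences of genes with low values. Within each comparison, Benjamini-Hochberg adjusted p-values under 0.05 were called. P-values set a difference of group means against the spread between libraries, which may be technical. Tables were handled in Python 3.11.15 with pandas 2.3.3 and numpy 2.4.6.

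FPKM values carry no absolute depth. Relative depth, from the steps of low values, ran from 0.917 to 1.20 around a mean of 1.0. At most 3.64% of values were equal in any pair of libraries, where the 4943 genes at 0 in every library were not counted as equal.

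The members and lists were chosen with earlier results of these data known. Members were named by rank: largest N, highest level, closest to control, widest and narrowest separation, shared component and nearest to each limit. Alternatives changed the pseudocount, filter, scaling, model, threshold and limits of the rule, or left out a library.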

Additional observations from a re-analysis of the deposited data

How the results depend on the processing

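The members were chosen from these same values, so their calls with NaCl, named members included, describe the choice. Under the 22 alternatives, 119 to 121 were called higher than in control, 111 to 121 than with sorbitol and 116 to 121 than with H2O2. At an adjusted p of 0.01 the counts were 119, 111 and 118. Of the 27038 tested genes, 3316, 1366 and 2614 were then called higher. For H2O2 against control 0 members were called in each alternative, where 0 to 102 of all tested genes were, so this is near the background. The rule limited S and H, so few calls against control with sorbitol or H2O2 describe the choice as well. For the 15 named members, 0 of 329 alternative values of the NaCl difference lost the threshold or reversed; c31208_g1 has no value at a filter of 5 FPKM. The count for sorbitol against control over both directions, 1 higher as given, was 0 at an adjusted p of 0.01, without a filter, under median-ratio scaling, without the mean-variance trend and with the replicate block. It was 2 with a filter at 5 FPKM, 4 with equal sums and 4 with only the groups compared, and 0 to 5 without each library; all were higher except 1 lower of the 5 without H2O2 replicate 2. The cause was not tested.

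The rule gave 121 genes as stated, 53 with limits of 0.2 on S and H, 249 with N of at least 0.8, and 104 to 162 without each library. With a pseudocount of 5 FPKM it gave 110 genes, of which 70 were among the 121. It gave 158 under median-ratio scaling (95 shared) and 97 with equal sums (80 shared). Without the 10 highest genes of each library in the sum, the members held 0.358% for control, 0.930% for NaCl, 0.409% for sorbitol and 0.365% for H2O2, since the sum is smaller.

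Deviations from the group mean correlated at -0.083 to 0.047 between libraries of the same number (18 pairs), so no pairing was assumed, and the block ended no NaCl call of the 15 named members. Depth is unknown, so changes of members near 0 outside NaCl rest on a number of reads that the files do not give.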
